A study of Homo sapiens with 10 samples.

Results

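The 10 genes described here write, read or remove DNA methylation, or build silent chromatin with it: *DNMT1*, *UHRF1*, *DNMT3A*, *DNMT3B*, *TET1*, *TET2*, *TET3*, *TRIM28*, *SETDB1* and *CBX3*. They were chosen by symbol, as 10 of the 59386 genes listed in each count file, and all 10 were among the 16899 genes tested. RNA was sequenced from VCaP, an established prostate cancer cell line, 72 h after its cells were transfected with siRNA. The question was what loss of either of 2 chromatin remodeling ATPases does to gene expression: *SMARCA4*, an ATPase of the SWI/SNF complexes, or *SMARCA1*, an ATPase of the ISWI family. The 4 *SMARCA4* knockdown libraries came from siRNA A (2 libraries) and siRNA B (2 libraries), the 4 *SMARCA1* knockdown libraries from siRNA A (2 libraries) and siRNA C (2 libraries), and 2 libraries were controls. All 10 libraries share the VCaP background, in which the control genotype is labelled WT. The dose of each siRNA against a remodeler was 30 pmol, and the siRNA and dose of the controls are not given in the sources used here, so a response to a knocked down gene and a response to transfected siRNA cannot be told apart against control. Both knockdowns received siRNA, so they are also compared with each other.

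DNA methylation marks cytosines of CpG sites and is kept through cell division by DNMT1, which UHRF1 brings to newly replicated DNA. DNMT3A and DNMT3B place methyl groups on unmethylated sites, and the TET enzymes oxidise 5-methylcytosine, which opens the way to its removal. TRIM28 (KAP1) is recruited by zinc finger proteins and brings in SETDB1, which methylates histone H3 at lysine 9, a mark bound by HP1 proteins such as the CBX3 product. Apart from the TET enzymes, these proteins together keep endogenous retroviruses and germline genes silent in somatic cells. No DNA methylation was measured in these libraries, so every value below is an RNA level.

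Levels are given in CPM, that is, scaled to the total count of each library after TMM normalization. A gene was called where edgeR's quasi-likelihood test gave an adjusted p (Benjamini-Hochberg, over all 16899 genes) below 0.05, and this test stands behind every adjusted p below. Total counts lay between 23898545 and 34667965, and counts of each replicate pair differed by more than sampling noise (chi-square per gene 3.80 to 60.6). The label check held: *SMARCA4* fell from 254.9 ± 18.0 CPM (SD, n = 2) in control to 20.1 ± 5.29 (n = 4) in its knockdown, and *SMARCA1* fell by 3.51 on the log2 scale in its own (adjusted p = 2.1e-06). *SMARCA1* also rose in *SMARCA4* knockdown (log2 fold change 1.07, adjusted p = 0.001). All 11 markers of prostate epithelium and VCaP were expressed, *HOXB13* at 305.8 to 488.7 CPM, whereas *PTPRC* and *CD3E* had 1 count each over the 10 libraries. Of the other markers of foreign cell types, *ALB* (44.7 to 139.6 CPM) and *COL1A1* (4.14 to 18.5 CPM) were detected in every library. At lower levels, so were *CD14* (0.559 to 1.82 CPM) and *PECAM1* (0.0418 to 0.434 CPM). The 10 markers of foreign cell types summed to 144.5 and 144.9 CPM in the controls. Their sum was 98.8 to 147.2 CPM in *SMARCA4* and 61.7 to 68.7 CPM in *SMARCA1* knockdown. One library stood apart: in *SMARCA1* siRNA A replicate 1, genes with long transcripts were low, as described with the TET genes. Results of the 10 genes that rest on it are given with and without it.

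The starts of *UHRF1*, *DNMT1* and *CBX3* are shown first, because these genes were the only 3 of the 9 with a RefSeq promoter window that carried a site of the E2F factors, which drive genes of DNA replication, and because they responded differently. A window runs from 250 bases before to 50 bases after a start (RefSeq, GRCh38.p14), 5′ to 3′ on the strand of the gene, and capitals mark the E2F site. The letters searched were TTTCCCGC, TTTCGCGC, TTTGGCGC and TTTGCCGC on both strands.
UHRF1, chr19:4909251-4909550, plus strand: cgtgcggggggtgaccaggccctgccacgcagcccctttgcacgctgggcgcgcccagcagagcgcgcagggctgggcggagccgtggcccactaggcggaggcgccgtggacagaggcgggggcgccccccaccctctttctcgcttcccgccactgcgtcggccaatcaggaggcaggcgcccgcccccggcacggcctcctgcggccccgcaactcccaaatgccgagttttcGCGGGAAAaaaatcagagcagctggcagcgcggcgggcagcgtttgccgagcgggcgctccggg
DNMT1, chr19:10194904-10195203, minus strand: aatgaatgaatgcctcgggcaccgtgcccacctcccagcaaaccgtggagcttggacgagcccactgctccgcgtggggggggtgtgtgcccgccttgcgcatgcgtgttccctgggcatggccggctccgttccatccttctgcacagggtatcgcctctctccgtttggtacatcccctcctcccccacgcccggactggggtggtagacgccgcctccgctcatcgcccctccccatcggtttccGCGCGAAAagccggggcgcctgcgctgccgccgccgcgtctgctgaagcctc
CBX3, chr7:26201193-26201492, plus strand: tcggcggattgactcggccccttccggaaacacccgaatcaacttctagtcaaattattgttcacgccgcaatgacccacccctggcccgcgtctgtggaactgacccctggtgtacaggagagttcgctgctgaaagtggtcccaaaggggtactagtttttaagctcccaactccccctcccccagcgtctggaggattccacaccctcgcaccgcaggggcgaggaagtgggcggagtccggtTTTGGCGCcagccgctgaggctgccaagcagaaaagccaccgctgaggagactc
The site began 14 bases before the start in *UHRF1*, 2 before it in *DNMT1* and 4 before it in *CBX3*. Several members have more than 1 window, and such a site was present in 4 of the 21 windows of the members and in 3.31% of 35116 windows of all genes. These windows held 36 CpG sites in *UHRF1*, 30 in *DNMT1* and 19 in *CBX3*, against a median of 14 over all windows. An E-box (CACGTG), the site of MYC and related factors, was found in windows of 4 members (*SETDB1*, *DNMT3A*, *TET3* and *TET2*), 6 windows of 21, and in 7.26% of all windows. A CCAAT box (CCAAT, both strands) was found in 4 members (*TET3*, *TET1*, *UHRF1* and *DNMT3B*), again 6 windows of 21, and in 34.6% of all windows. A match describes letters in the window and shows no binding. *TRIM28* had no window.

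In *SMARCA4* knockdown, 4 of the 10 genes fell (*UHRF1*, *CBX3*, *DNMT3B* and *DNMT3A*) and 1 rose (*SETDB1*), beside 45.1% of all tested genes called, 22.8% higher and 22.3% lower. In *SMARCA1* knockdown, 4 fell (*TET1*, *TET3*, *DNMT3B* and *CBX3*) and none rose, beside 46.8% of all tested genes called, 23.8% higher and 23.0% lower. Between the knockdowns 5 differed, beside 35.4% of all tested genes: *UHRF1* and *CBX3* were lower in *SMARCA4* knockdown, and *TET1*, *TET2* and *DNMT3B* were higher. The numbers called were thus near those of genes at large, and the median log2 fold change of the 10 was −0.31 in *SMARCA4* and −0.26 in *SMARCA1* knockdown, beside 0.00 over all genes in both. Both knockdowns were compared with the same 2 control libraries. Without *SMARCA1* siRNA A replicate 1, the calls among the 10 became 8, 5 and 6 in the same order, beside 52.0%, 48.1% and 34.2% of all genes. Without control replicate 1, or without control replicate 2, 2 were called in each knockdown.

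**Figure D1:**
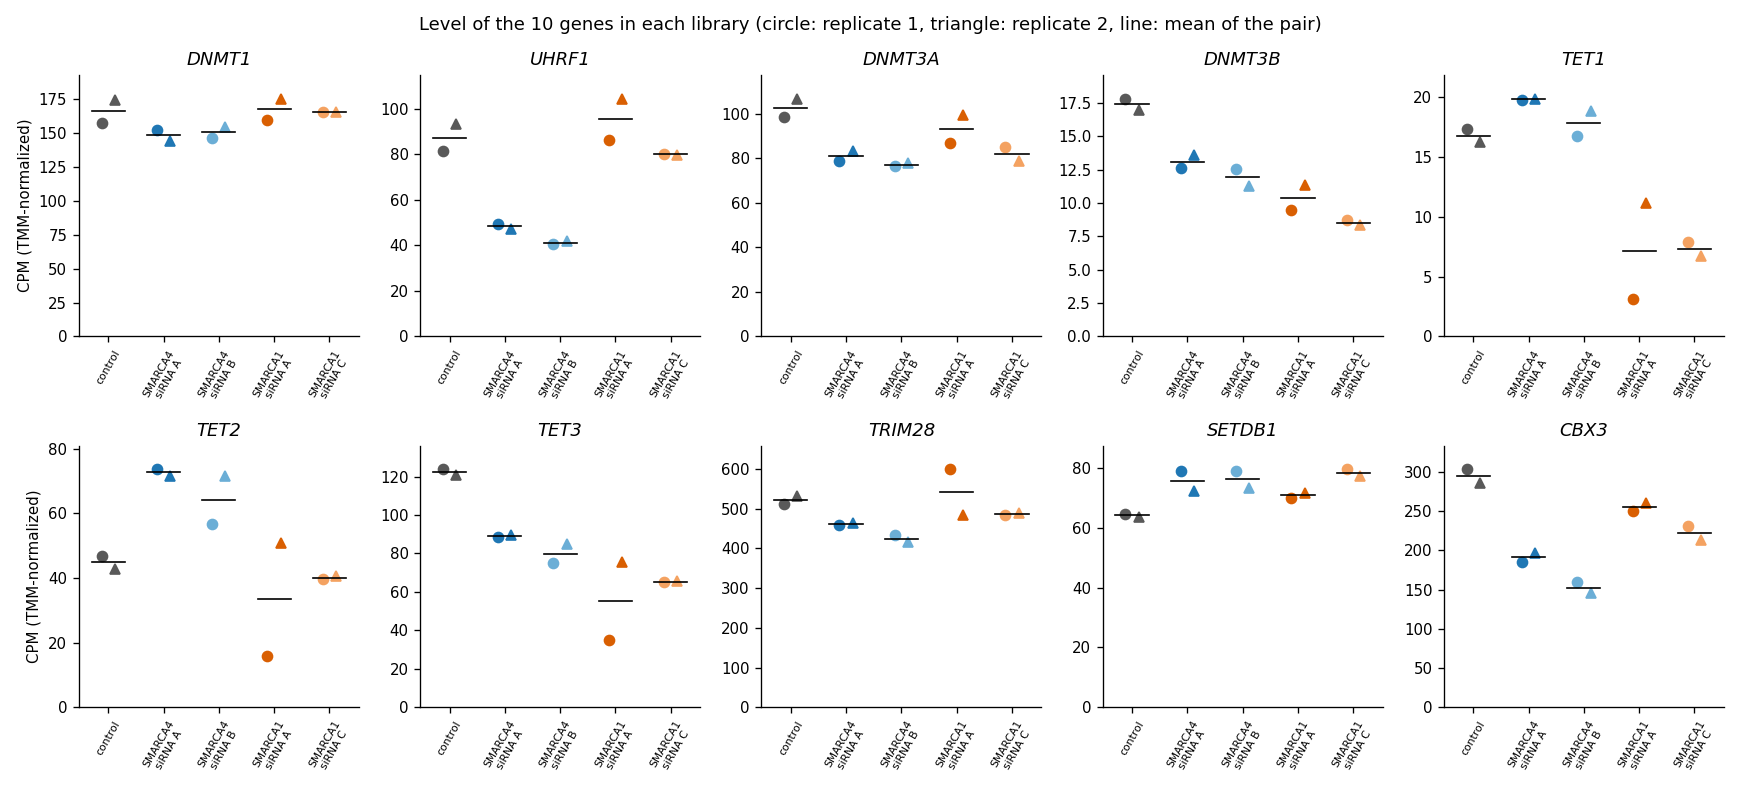
Level of each of the 10 genes in CPM (linear axes from 0) in each library; circles are replicate 1, triangles replicate 2 and lines the mean of a pair. *UHRF1* was between 40.6 and 49.3 CPM in the *SMARCA4* knockdown libraries and at 79.9 CPM or more in every other library, and *TET1*, *TET2* and *TET3* were lowest in *SMARCA1* siRNA A replicate 1.

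**Figure D2:**
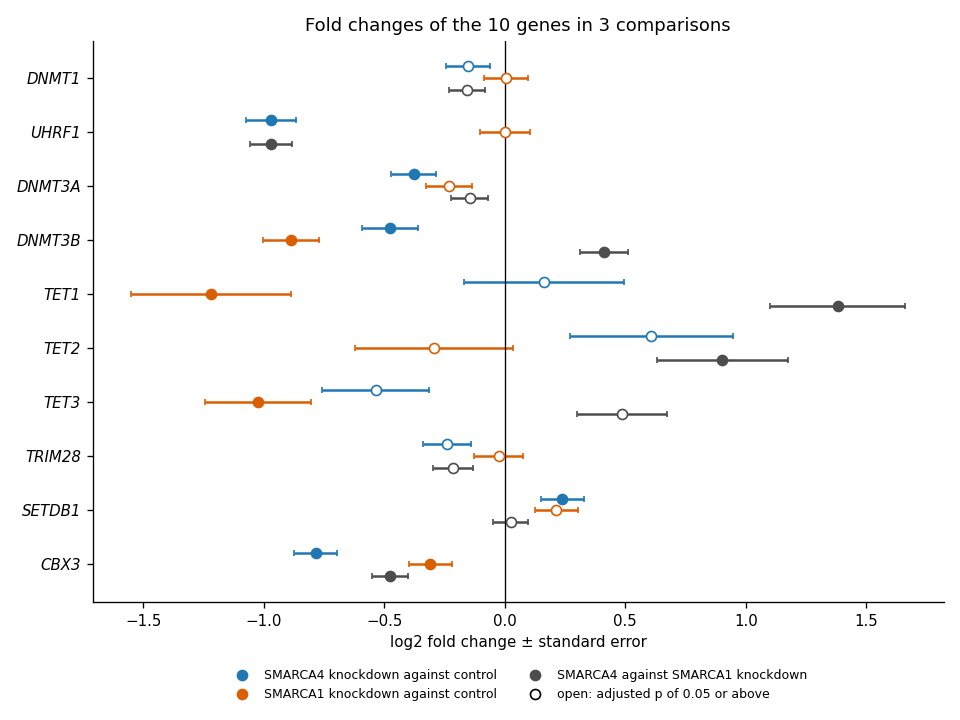
Log2 fold changes (horizontal axis) with standard errors for the 10 genes in the comparisons of each knockdown with control and of the knockdowns with each other; filled points had an adjusted p below 0.05. The error bars of *TET1*, *TET2* and *TET3* were the widest, and *UHRF1* was at −0.97 against both control and *SMARCA1* knockdown.

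The pair that maintains methylation split. *UHRF1* (chromosome 19, 4903080 to 4962154, plus strand, GRCh38) binds hemimethylated CpG sites and histone H3. Its level was 81.4 and 93.5 CPM in the controls. In *SMARCA4* knockdown it was 49.3 and 47.3 CPM with siRNA A and 40.6 and 41.8 CPM with siRNA B, all below both controls. In *SMARCA1* knockdown it was 86.6 and 104.6 CPM with siRNA A and 80.3 and 79.9 CPM with siRNA C, a range that overlapped the controls. *UHRF1* thus stood at 51.2% of the control mean in *SMARCA4* knockdown (log2 fold change −0.97 ± 0.10, adjusted p = 6.9e-05). The difference from *SMARCA1* knockdown was of the same size (−0.97 ± 0.09, adjusted p = 8.6e-05). Against control, *SMARCA1* knockdown gave 0.00 with a 95% interval from −0.23 to 0.23 (adjusted p = 1.0). The fall in *SMARCA4* knockdown was called under all 19 alternative settings, and with each siRNA alone (−0.86 for siRNA A and −1.09 for siRNA B).

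*DNMT1* (chromosome 19, 10133342 to 10231286, minus strand) encodes the maintenance methyltransferase itself. The controls had 157.7 and 174.8 CPM. The *SMARCA4* knockdown libraries had 152.7, 144.4, 146.4 and 155.0 CPM, all slightly below the controls. The *SMARCA1* knockdown libraries had 159.7, 175.6, 165.6 and 165.9 CPM and overlapped them. Neither difference was called. In *SMARCA4* knockdown it was −0.15 with a 95% interval from −0.36 to 0.05 (adjusted p = 0.20), and in *SMARCA1* knockdown 0.00 with an interval from −0.20 to 0.21 (adjusted p = 0.98). The intervals leave room for a fall of *DNMT1* in *SMARCA4* knockdown, but for a smaller one than that of *UHRF1*, whose interval ran from −1.20 to −0.74. Counts cover all annotated exons of a gene, which sum to 15379 bases in *DNMT1* and 5145 in *UHRF1*. The MANE Select transcripts have 5274 and 3898 bases, so comparisons between genes depend on the length chosen. Levels of different genes are compared per kilobase of the MANE Select transcript. On that scale *UHRF1* was at 0.698 and 0.724 of *DNMT1* in the controls, 0.365 to 0.444 of it in *SMARCA4* knockdown and 0.652 to 0.806 of it in *SMARCA1* knockdown. *DNMT1* shares 83 of its 15379 exonic bases with *S1PR2* on the same strand, which had 965 counts beside 46047 for *DNMT1*.

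Both genes belong to dividing cells, and genes of replication and cycling moved as well. Of 20 such marker genes, 19 fell in *SMARCA4* knockdown and 13 in *SMARCA1* knockdown, and 16 were lower in *SMARCA4* than in *SMARCA1* knockdown. Their summed level was 3787 and 3791 CPM in the controls, 1913 to 2256 CPM in *SMARCA4* knockdown and 2443 to 3013 CPM in *SMARCA1* knockdown. In *SMARCA1* knockdown the summed level was below the controls, while *UHRF1* was at the control level. The 20 genes were not uniform, and 7 of them were not called there. Of these, *CDT1* (−0.82 in *SMARCA4* and 0.04 in *SMARCA1* knockdown), *E2F2* (−0.55 and 0.21) and *PCNA* (−0.84 and −0.15) fell in *SMARCA4* knockdown, whereas *CCNE2* was called in neither. The part of cycling in the fall of *UHRF1* was not tested. The genes whose log2 CPM was most like that of *UHRF1* over the 10 libraries, among 10877 genes at a mean of at least 5 CPM, were *LMNB2* (Pearson r = 0.992), *CBX2* (0.983) and *ADCY3* (0.980). For *DNMT1* they were *TBC1D24* (0.967), *ANKRD13A* (0.923) and *UACA* (0.916). The libraries in these correlations share their groups, so that any gene with the same order of groups scores high.

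**Figure D3:**
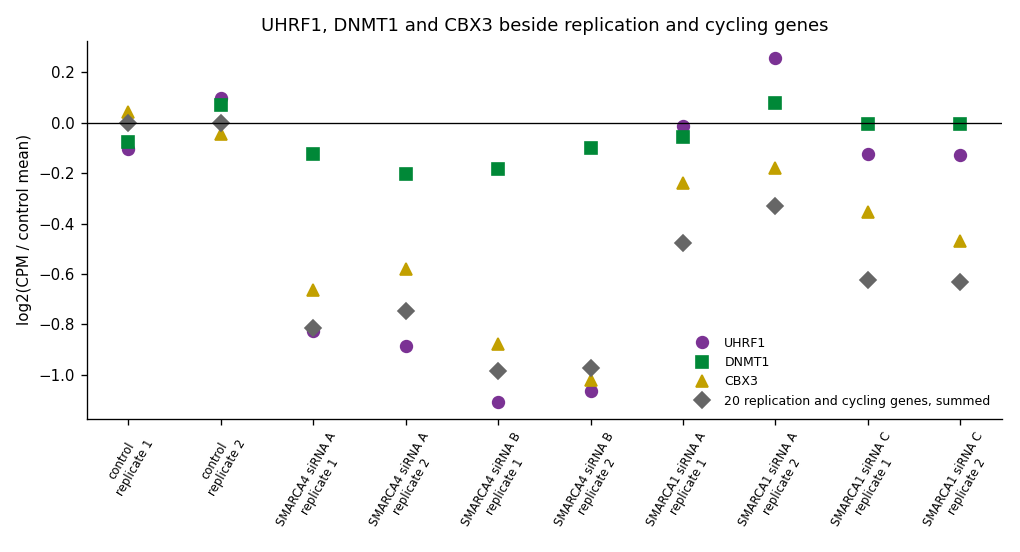
Log2 ratio to the control mean in each library for *UHRF1*, *DNMT1*, *CBX3* and the summed CPM of 20 replication and cycling genes. In *SMARCA4* knockdown *UHRF1*, *CBX3* and the sum were low while *DNMT1* stayed between 144.4 and 155.0 CPM, and in *SMARCA1* knockdown the sum was below control while *UHRF1* and *DNMT1* overlapped it.

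The de novo enzymes were lower in both knockdowns, though *DNMT3A* was called in 1 only. *DNMT3B* (chromosome 20, 32762385 to 32809356, plus strand) had 17.8 and 17.0 CPM in the controls. Its level was 12.6, 13.6, 12.6 and 11.3 CPM in *SMARCA4* knockdown and 9.44, 11.3, 8.70 and 8.33 CPM in *SMARCA1* knockdown. Every knockdown library was below both controls, and the ranges of the knockdowns overlapped at 11.3 CPM. The fall was −0.48 ± 0.12 in *SMARCA4* knockdown (adjusted p = 0.0081) and −0.89 ± 0.12 in *SMARCA1* knockdown (adjusted p = 0.0003), where 54.3% of the control mean was left. The difference between the knockdowns was called too (0.41 ± 0.10, adjusted p = 0.010). The fall in *SMARCA1* knockdown was called under all 19 alternatives. That in *SMARCA4* knockdown was lost without control replicate 1 (adjusted p = 0.097) or control replicate 2 (0.052).

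*DNMT3A* (chromosome 2, 25227855 to 25342590, minus strand) had 98.7 and 106.9 CPM in the controls and 78.8, 83.4, 76.4 and 77.8 CPM in *SMARCA4* knockdown. In *SMARCA1* knockdown it had 87.0, 99.6, 85.2 and 78.9 CPM, where the second library of siRNA A lay within the range of the controls. It fell in *SMARCA4* knockdown (−0.38 ± 0.09, adjusted p = 0.0086), a call lost without control replicate 1 (adjusted p = 0.051) or control replicate 2 (0.13). In *SMARCA1* knockdown the difference was −0.23 with a 95% interval from −0.44 to −0.02, and the adjusted p was 0.068. It passed with siRNA C alone (−0.33, adjusted p = 0.035) and without siRNA A replicate 2 (0.018). The knockdowns did not differ beyond their spread (−0.15, interval −0.32 to 0.03, adjusted p = 0.17). The *DNMT3A* transcript is long (9421 bases), and long transcripts were low in some libraries, as described with the TET genes. Against control, the 987 genes with a transcript of at least 8 kb had a median of −0.29 in *SMARCA1* and −0.08 in *SMARCA4* knockdown. Per kilobase, *DNMT3B* was at 0.392 and 0.345 of *DNMT3A* in the controls and at 0.316 to 0.358 in *SMARCA4* knockdown. In *SMARCA1* knockdown the ratio was 0.222 to 0.247, below every other library.

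Summed per kilobase, the 3 methyltransferase genes had 44.5 and 48.4 CPM per kb in the controls, 38.8 to 40.2 in *SMARCA4* knockdown and 41.7 to 46.5 in *SMARCA1* knockdown. *DNMT1* made up most of each sum on this scale. *DNMT3A* was most like *HMGB1P5* (r = 0.968), *PRPS1* (0.966) and *ZADH2* (0.959) over the 10 libraries, and *DNMT3B* most like *ZFP62* (0.968), *SLC36A4* (0.965) and *IPP* (0.965).

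Of the TET genes, *TET1* and *TET3* fell in *SMARCA1* knockdown, and with all libraries none was called in *SMARCA4* knockdown. Their transcripts are long, with 9612 bases for *TET1*, 9589 for *TET2* and 12060 for *TET3*, and long transcripts were low in some libraries. In *SMARCA1* siRNA A replicate 1, the 987 genes with a transcript of at least 8 kb (mean of at least 5 CPM) had a median log2 ratio to the control mean of −0.63, and genes under 2 kb were 0.31 higher than in the replicate of the same siRNA. The 987 long genes were at −0.05 in that replicate, at −0.26 and −0.25 with siRNA C and between −0.18 and −0.01 in the *SMARCA4* libraries. Values of the TET genes should be read beside these.

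*TET1* (chromosome 10, 68560337 to 68694487, plus strand) had 17.3 and 16.2 CPM in the controls. It was at 19.7, 19.8, 16.7 and 18.8 CPM in *SMARCA4* knockdown, which overlapped the controls. With siRNA A against *SMARCA1* its level was 3.15 and 11.1 CPM and with siRNA C 7.87 and 6.74 CPM, all below the controls. The fall in *SMARCA1* knockdown was −1.22 ± 0.33 (adjusted p = 0.013), beside a median of −0.29 for the 987 long genes in the same comparison with 10% of them below −1.08. Without siRNA A replicate 1 it was −0.89 (adjusted p = 0.00026), beside a median of −0.17 with 10% of them below −0.91. The call was lost without control replicate 1 (adjusted p = 0.088) or control replicate 2 (0.063). *SMARCA4* knockdown gave 0.16 with an interval from −0.58 to 0.90 (adjusted p = 0.72). *TET1* was higher in *SMARCA4* than in *SMARCA1* knockdown, by 1.38 ± 0.28 (adjusted p = 0.0045) and by 1.07 without that library (adjusted p = 9.7e-05).

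*TET3* (chromosome 2, 73984910 to 74108176, plus strand) had 123.7 and 120.7 CPM in the controls. *SMARCA4* knockdown left 88.4, 89.8, 74.8 and 84.7 CPM and *SMARCA1* knockdown 35.0, 75.6, 65.1 and 65.7 CPM. All 8 knockdown libraries were thus below both controls. In *SMARCA1* knockdown *TET3* fell by 1.02 ± 0.22 on the log2 scale (adjusted p = 0.0041), a call kept under all 19 alternatives, and by 0.80 without siRNA A replicate 1 (adjusted p = 7.9e-05). In *SMARCA4* knockdown the difference was −0.54 ± 0.22 and missed the threshold (adjusted p = 0.074). The spread behind that test was shared over all 5 conditions, the discordant *SMARCA1* siRNA A pair included. Without replicate 1 of that pair the difference was −0.52 (adjusted p = 0.00023), without replicate 2 it was −0.50 (0.00032), and in a fit of *SMARCA4* and control libraries only it was −0.53 (0.001). The difference between the knockdowns was 0.49 (adjusted p = 0.066) with all libraries, 0.27 (0.012) without siRNA A replicate 1 and 0.83 (3.6e-05) without siRNA A replicate 2. The gene shares 390 exonic bases with AC073046.25 on the same strand, which had 0 counts.

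*TET2* (chromosome 4, 105145875 to 105279816, plus strand) had 47.0 and 42.7 CPM in the controls and 73.6, 71.7, 56.8 and 71.7 CPM in *SMARCA4* knockdown, all above both controls. In *SMARCA1* knockdown it had 15.8 and 51.0 CPM with siRNA A and 39.6 and 40.5 CPM with siRNA C, 3 libraries below and 1 above the controls. With all libraries neither difference from control was called: 0.61 ± 0.34 in *SMARCA4* knockdown (adjusted p = 0.17) and −0.29 with an interval from −1.02 to 0.44 in *SMARCA1* knockdown (adjusted p = 0.48). Without *SMARCA1* siRNA A replicate 1, *TET2* was called in *SMARCA4* knockdown (0.62, adjusted p = 0.00074), as it was in the fit of *SMARCA4* and control libraries only (0.62, adjusted p = 0.0024). In *SMARCA1* knockdown the value depended on that pair, with 0.01 (adjusted p = 0.94) without siRNA A replicate 1 and −0.80 (0.00027) without siRNA A replicate 2. Between the knockdowns *TET2* differed by 0.90 ± 0.27 (adjusted p = 0.027), or by 0.61 (adjusted p = 0.0011) without siRNA A replicate 1. Leaving out *SMARCA4* siRNA A replicate 2 (adjusted p = 0.052), *SMARCA4* siRNA B replicate 2 (0.077), *SMARCA1* siRNA C replicate 1 (0.073) or *SMARCA1* siRNA C replicate 2 (0.071) ended that call.

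The proportions within the family, which were not tested, also differed between groups. Per kilobase, *TET2* was at 0.477 and 0.445 of *TET3* in the controls. In *SMARCA4* knockdown it was at 0.954 to 1.06, so that both had about the same level there on this scale. The ratio was 0.569 to 0.848 in *SMARCA1* knockdown, and in the discordant library it was the lowest of these. *TET1* was at 0.176 and 0.168 of *TET3* in the controls, at 0.277 to 0.280 in *SMARCA4* knockdown and at 0.113 to 0.185 in *SMARCA1* knockdown. Summed per kilobase, the 3 TET genes had 17.0 and 16.1 CPM per kb in the controls and 13.9 to 17.1 in *SMARCA4* knockdown, which overlapped. In *SMARCA1* knockdown the sum was 4.88 in the discordant library and 10.3 to 12.7 in the others, below both controls. Among the genes most like *TET1* over the libraries were *RASA1* (r = 0.992) and *KMT5B* (0.982). Among those for *TET2* were *TNKS2* (0.989) and *BDP1* (0.986), and for *TET3* *OSBPL8* (0.988) and *CPD* (0.988).

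**Figure D4:**
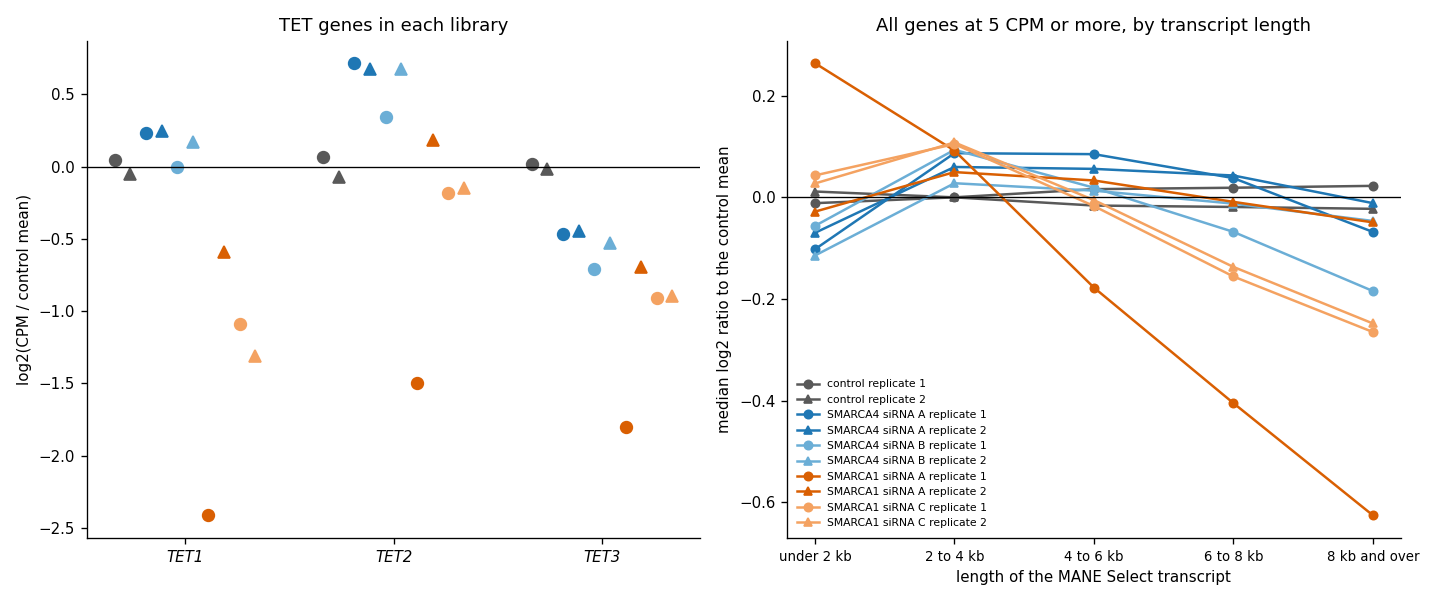
Left, log2 ratio of CPM to the control mean for the TET genes in each library (circle, replicate 1; triangle, replicate 2); right, median of the same ratio (log2 of CPM with 0.5 added) over all genes at a mean of at least 5 CPM, by transcript length. The library of *SMARCA1* siRNA A replicate 1 reached −0.63 for transcripts of 8 kb and over, where both libraries of siRNA C were near −0.26 and −0.25 and its own replicate at −0.05.

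Of the silencing genes, *CBX3* moved most. *CBX3* (chromosome 7, 26201162 to 26213607, plus strand) encodes HP1 gamma, a reader of methylated histone H3 lysine 9. The controls had 303.4 and 285.9 CPM. Under siRNA A against *SMARCA4* the level was 185.9 and 197.2 CPM, and under siRNA B 160.3 and 145.2 CPM. In *SMARCA1* knockdown it was 249.9 and 260.3 CPM with siRNA A and 230.7 and 213.0 CPM with siRNA C. The 3 groups did not overlap, with *SMARCA4* knockdown lowest. *CBX3* fell in *SMARCA4* knockdown (−0.78 ± 0.09, adjusted p = 0.00011), a call kept under all 19 alternatives, and less in *SMARCA1* knockdown (−0.31 ± 0.09, adjusted p = 0.018). The knockdowns differed by −0.48 ± 0.07 (adjusted p = 0.0012). The fall in *SMARCA1* knockdown was lost without control replicate 1 (adjusted p = 0.18), control replicate 2 (0.071) or siRNA C replicate 2 (0.077) and with siRNA A alone (0.15). The 9 listed pseudogenes of *CBX3* had 201 counts beside 63504 for the gene. *CBX3* shares 368 of its 4840 exonic bases with *HNRNPA2B1* on the opposite strand, which had 353120 counts. Strand was kept in the library preparation, but whether reads were counted by strand is not given in the sources used here. If strand was not used, reads in the shared stretch could come from either gene. The genes most like *CBX3* were *HDAC2* (r = 0.995), *NAE1* (0.990) and *MRPS35* (0.990).

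*SETDB1* (chromosome 1, 150926263 to 150964744, plus strand), the H3 lysine 9 methyltransferase of the TRIM28 complex, had 64.8 and 63.8 CPM in the controls. Its level was 78.9, 72.2, 79.1 and 73.4 CPM in *SMARCA4* knockdown and 70.1, 71.7, 79.5 and 77.3 CPM in *SMARCA1* knockdown. Every knockdown library was above both controls, by a small step. The rise was 0.24 ± 0.09 in *SMARCA4* knockdown, just past the threshold (adjusted p = 0.0497), and was called under 8 of 19 alternatives. It was not called with siRNA A alone (adjusted p = 0.11) or siRNA B alone (0.073). It was lost without either control replicate (adjusted p = 0.12 without replicate 1 and 0.15 without replicate 2), without replicate 1 of *SMARCA4* siRNA A (0.078) or siRNA B (0.085), and without replicate 1 (0.082) or replicate 2 (0.095) of *SMARCA1* siRNA C. In *SMARCA1* knockdown it was 0.21 with an interval from 0.02 to 0.41 (adjusted p = 0.071), and it was called without siRNA A replicate 1 (0.032) and without siRNA A replicate 2 (0.023). Between the knockdowns the difference was 0.02, with an interval from −0.13 to 0.18. *SETDB1* shares 948 of its 7093 exonic bases with *CERS2* on the opposite strand, which had 110031 counts beside 21240 for *SETDB1*, so reads in that stretch could come from either gene if strand was not used. *FLRT3* (r = 0.984), *GCC1* (0.984) and *ST6GAL2* (0.978) were most like it.

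*TRIM28* (chromosome 19, 58544064 to 58550722, plus strand), the scaffold of that complex, had 510.8 and 532.9 CPM in the controls. It had 458.2, 463.3, 432.6 and 415.2 CPM in *SMARCA4* knockdown, all below the controls. In *SMARCA1* knockdown it had 598.7, 482.9, 484.3 and 488.6 CPM, with the high value in the library that was low for long transcripts. In that library genes of 2 to 4 kb, the class of *TRIM28* (3364 bases), had a median log2 ratio to the control mean of 0.09. Neither difference was called: −0.24 with an interval from −0.46 to −0.02 in *SMARCA4* knockdown (adjusted p = 0.077) and −0.02 with an interval from −0.25 to 0.20 in *SMARCA1* knockdown (adjusted p = 0.85). Without *SMARCA1* siRNA A replicate 1 the first became −0.23 with an adjusted p of 0.013, and without *SMARCA1* siRNA A replicate 2 it was −0.20 with an adjusted p of 0.024. Most like it were *AAAS* (r = 0.980), *SNRPA* (0.9751) and *CHCHD2* (0.970).

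By level per kilobase the 10 genes spanned a wide range in the controls. *TRIM28* (155.1 CPM per kb) and *CBX3* (143.0) led, and their control libraries did not overlap (151.9 to 158.4 and 138.7 to 147.2). They were followed by *DNMT1* (31.5), *UHRF1* (22.4), *SETDB1* (14.6), *DNMT3A* (10.9) and *TET3* (10.1). *TET2* (4.67) and *DNMT3B* (4.01) came next, and *TET1* (1.74) was lowest. Each neighbouring pair was apart in both control libraries on this scale, the closest being *DNMT3A* (10.47 to 11.35) and *TET3* (10.01 to 10.26). The exons counted are longer than the MANE Select transcript by unequal amounts. They sum to 16474 bases against 9589 in *TET2* and to 4630 against 4336 in *DNMT3B*. The order by summed exon length was not examined and could differ. In *SMARCA4* knockdown *SETDB1* (17.2 CPM per kb) stood above *UHRF1* (11.5), the reverse of the controls, and *TET2* (7.14) and *TET3* (7.001) overlapped. In *SMARCA1* knockdown the order of the means was that of the controls, with *TET2* (1.65 to 5.32) overlapping *TET3* (2.90 to 6.27) and *DNMT3B* (1.92 to 2.61).

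The siRNAs of each target were also compared with each other. Between *SMARCA4* siRNA B and siRNA A none of the 10 was called by edgeR's quasi-likelihood test, or by DESeq2, beside 6.20% of all genes (4145 of the 16899 had an unadjusted p below 0.05). The largest difference was that of *CBX3*, whose libraries did not overlap between the siRNAs (−0.33 for siRNA B against siRNA A, interval −0.56 to −0.09, adjusted p = 0.093). For the TET genes the intervals of this difference were wide, with −0.99 to 0.69 for *TET1*, −1.02 to 0.66 for *TET2* and −0.74 to 0.42 for *TET3*. The *CBX3* difference was called without *SMARCA1* siRNA A replicate 1 and without *SMARCA1* siRNA A replicate 2. *SMARCA4* itself was lower with siRNA B (−0.60, adjusted p = 0.048). Between *SMARCA1* siRNA C and siRNA A none of the 10 was called by either tool, beside 0.0118% of all genes (2898 with an unadjusted p below 0.05). The siRNA A pair was the discordant one here, and when its replicate 2 was left out, 4 of the 10 were called (*TET1*, *TET2*, *TET3* and *TRIM28*).

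Beyond the 10, 71 genes of DNA methylation and heterochromatin were listed by role, and 68 of them were tested. In *SMARCA4* knockdown 36 were called (14 higher, 22 lower, median log2 fold change −0.03), and in *SMARCA1* knockdown 31 (15 higher, 16 lower, median 0.07), beside 45.1% and 46.8% of all tested genes. The counts by role that follow are small and were not tested against other genes. Fold changes of these genes, and of the germline genes below, are given with all libraries only, *SMARCA1* siRNA A replicate 1 included. In *SMARCA1* knockdown the 987 genes with a transcript of at least 8 kb had a median of −0.29, and falls of long genes there should be read beside it. Of 7 tested partners of DNA methylation, 6 fell in *SMARCA4* and 4 in *SMARCA1* knockdown, and none rose. They include *PCNA*, the replication clamp, which is also among the 20 cycling genes above (−0.84, adjusted p = 5.1e-05, and −0.15, adjusted p = 0.18). *HELLS*, a remodeler needed for DNA methylation, went from 49.2 to 51.1 CPM in the controls to 22.7 to 23.9 CPM in *SMARCA4* and 23.9 to 31.8 CPM in *SMARCA1* knockdown (−1.11, adjusted p = 7.1e-05, and −0.86, adjusted p = 0.00035). *CDCA7*, which activates HELLS, fell by 1.48 and 1.17 on the log2 scale, and *CDCA7L*, its paralog, by 0.75 and 1.23. Among 8 HP1 proteins and partners, 3 fell and 1 rose in *SMARCA4* knockdown, and 2 fell and 1 rose in *SMARCA1* knockdown. *CBX5*, which encodes HP1 alpha, fell from 347.2 to 384.7 CPM in the controls to 90.8 to 189.8 CPM in *SMARCA4* and 82.1 to 180.7 CPM in *SMARCA1* knockdown (−1.46, adjusted p = 0.00087, and −1.79, adjusted p = 0.00032). *LBR*, an HP1-binding receptor of the nuclear lamina, fell by 0.83 and 0.58. *CHAF1B*, a subunit of the chromatin assembly factor CAF-1, rose in *SMARCA1* knockdown (0.51, adjusted p = 0.0094).

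Of 7 H3 lysine 9 methyltransferase genes and cofactors tested, 1 fell in both knockdowns, *SUV39H2* (−0.78 and −0.88, adjusted p = 0.00039 and 0.00025), while *EHMT1* (0.32) and *PRDM2* (0.49) rose in *SMARCA4* knockdown. Of 11 H3 lysine 9 demethylases, 4 rose and 1 fell in *SMARCA4* knockdown, and 2 rose in *SMARCA1* knockdown. *KDM4B* was at 118.4 and 120.5 CPM in the controls and 188.5 to 201.5 CPM in *SMARCA4* knockdown (0.71, adjusted p = 0.00017), and *KDM4A* (0.55) and *KDM4C* (0.37) rose with it. Of 8 readers of methylated CpG, 1 rose and 2 fell in *SMARCA4* knockdown, and 2 rose and 1 fell in *SMARCA1* knockdown. *ZBTB4* rose in both (0.74 and 0.59), and *MBD2* rose (0.48) and *ZBTB38* fell (−0.63) in *SMARCA1* knockdown. Of 5 HUSH and MORC genes, which silence retroelements, *MORC3* rose in *SMARCA4* knockdown (0.81, adjusted p = 0.0042), and *MPHOSPH8* rose (0.38) and *TASOR* fell (−0.44) in *SMARCA1* knockdown. In the list of *ATRX*, its partners and histone variants, 1 of 5 rose and 2 fell in *SMARCA4* knockdown, and 3 rose and 1 fell in *SMARCA1* knockdown. *HIRA*, a chaperone of histone H3.3, rose in both (0.87 and 1.22), *ATRX* fell in both (−0.39 and −0.85), and *H3-3B* rose in *SMARCA1* knockdown (0.50).

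The last roles were the steps after TET oxidation and the supply of cofactors. Of 9 genes of active demethylation and repair, 3 rose and 2 fell in *SMARCA4* knockdown, and 4 rose and 3 fell in *SMARCA1* knockdown. *GADD45B*, a stress-induced gene, rose from 3.23 and 3.43 CPM in the controls to 11.8 to 28.3 CPM and 16.5 to 34.8 CPM (2.67 and 3.01, adjusted p = 0.00019 and 0.00014). *IDH1*, whose enzyme makes the 2-oxoglutarate that TET enzymes use, rose in *SMARCA4* knockdown (1.18, adjusted p = 2.7e-05) and was at 0.01 in *SMARCA1* knockdown (adjusted p = 0.92). *OGT*, which encodes a partner of the TET proteins, fell in *SMARCA1* knockdown (−0.90, adjusted p = 0.002). Of 8 tested genes of methyl donor supply, 5 fell and 1 rose in *SMARCA4* knockdown, and 3 fell and 2 rose in *SMARCA1* knockdown. *AHCY*, which clears the methyltransferase product S-adenosylhomocysteine, fell by 1.12 and 0.72 (adjusted p = 2.6e-05 and 0.00037). *MTR*, the methionine synthase gene, fell by 1.09 and 0.85, and *MTHFD1*, a folate enzyme gene, fell by 0.97 in *SMARCA4* knockdown.

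**Figure D5:**
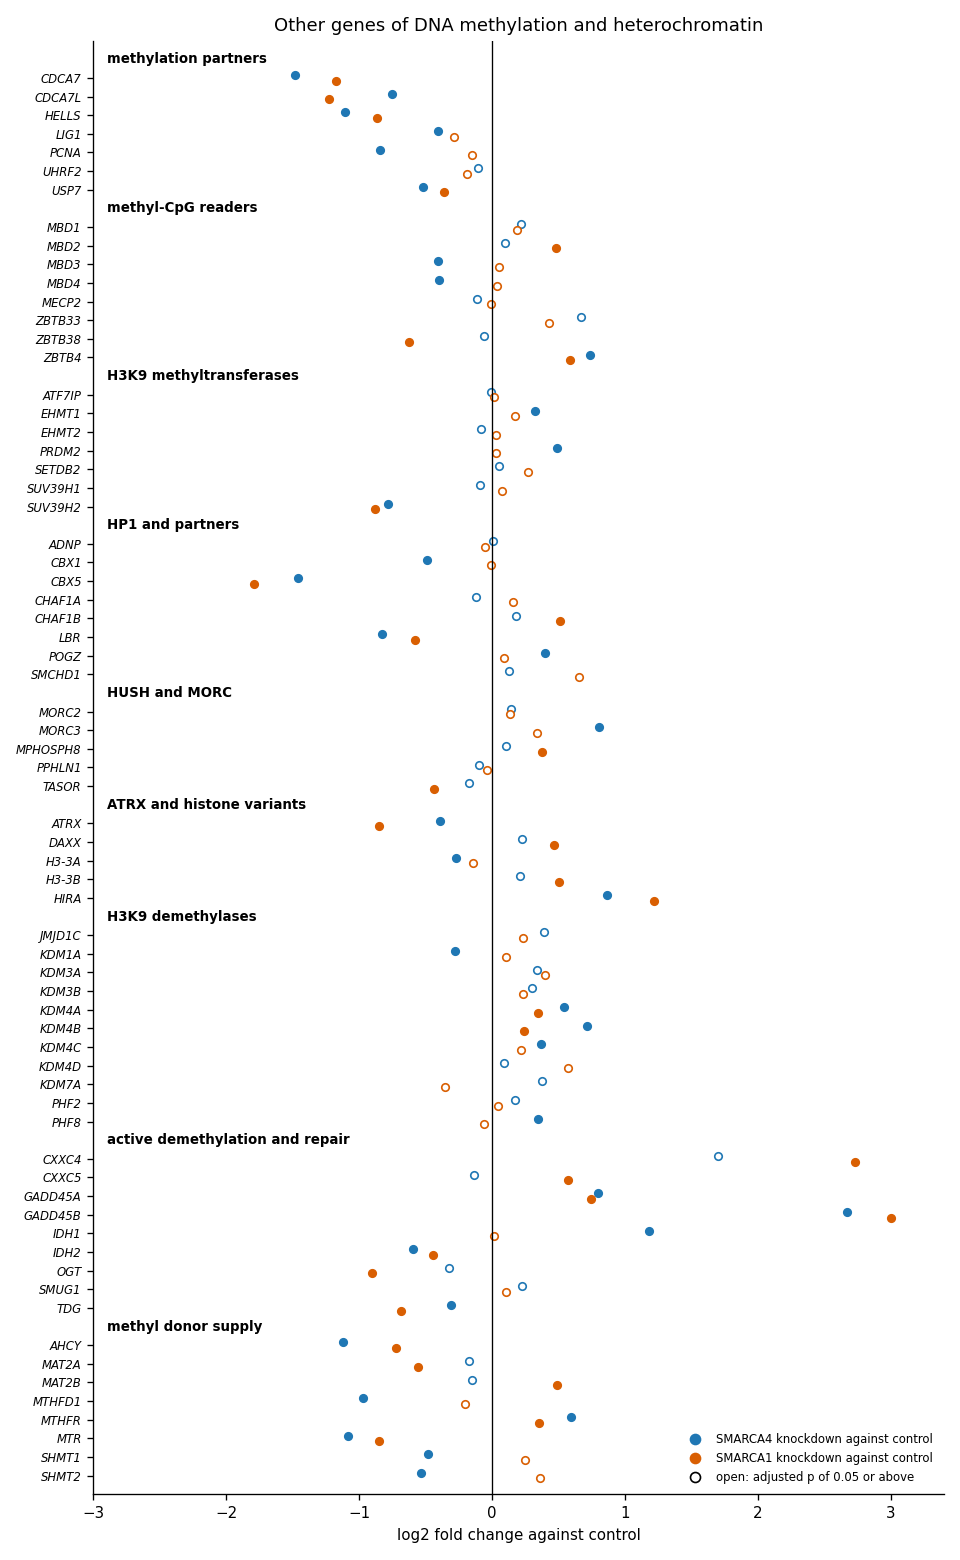
Log2 fold change against control (horizontal axis) of the 68 tested genes of the wider list, by role, in *SMARCA4* (blue) and *SMARCA1* knockdown (orange); filled points had an adjusted p below 0.05. No partner of DNA methylation rose, and *CBX5*, *HELLS* and *CDCA7* lay far to the left in both knockdowns, *GADD45B* far to the right.

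Of 42 listed germline genes, many of which are kept silent by promoter methylation in somatic cells, 5 passed the filter on low counts. *TDRD1* had 168.2 and 175.7 CPM in the controls and fell in both knockdowns (−0.55, adjusted p = 0.021, and −0.995, adjusted p = 0.00093). *PRAME* went from 0.632 and 0.795 CPM to 1.79 to 4.71 CPM in *SMARCA4* and 1.30 to 4.71 CPM in *SMARCA1* knockdown (2.002, adjusted p = 0.011, and 2.19, adjusted p = 0.0067). *TEX14* rose too (1.20, adjusted p = 0.00041, and 0.60, adjusted p = 0.019), and *ASZ1* fell in *SMARCA4* knockdown (−1.47, adjusted p = 0.0095) from a level of 1.21 and 1.30 CPM. Of the 42 genes, 30 had 0 counts in all control libraries, 25 in all *SMARCA4* and 20 in all *SMARCA1* knockdown libraries. The knockdowns hold 4 libraries each against 2, which lowers such a count.

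A last set of values moved with both knockdowns. All 20 listed interferon-stimulated genes rose in each, and their summed level went from 273.0 and 276.9 CPM in the controls to 15362 to 41111 CPM in *SMARCA4* and 21875 to 42165 CPM in *SMARCA1* knockdown. The levels of these genes overlapped between the knockdowns, while those of *UHRF1* and *CBX3* did not. What part the interferon genes had in the values of the 10 genes was not tested.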

How the data were processed

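RNA-seq of 10 VCaP libraries was analysed. Strand-specific libraries were made by the authors after polyA selection. They aligned reads to GRCh38 with HISAT2 2.1.0 and counted them with featureCounts 1.5.2 on GENCODE genes. The release and the use of strand are not given in the sources used here. The deposited values are raw counts per gene. Groups, siRNAs and replicate numbers came from the sample labels. Nothing there says that replicates were separate cultures, so p-values measure the spread between these libraries, which may be technical.

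In R 4.3.3, low genes were dropped with edgeR 4.0.16 (filterByExpr, count of at least 10 and total of at least 15). TMM scaling was followed by the quasi-likelihood test on all libraries, as 5 groups, with Benjamini-Hochberg adjustment over 16899 genes. A knockdown was taken as the average of its siRNA groups. Standard errors are the absolute log2 fold change over the square root of F, and 95% intervals use the degrees of freedom of the test. The fit was tested on simulated data, with the same spread setting for all genes and no discordant library. That test does not cover the discordant pair found here. Transcript lengths (MANE Select) came from GENCODE 44 and promoter windows from RefSeq, with 9 of 10 members matched. The members and gene lists were chosen with earlier results of these data known. Named were all 10 members, up to 3 called genes with the largest change per role of the wider list (mean of at least 1 CPM), called germline genes, and the 3 genes most like each member, of which some are not reported here. Alternatives were DESeq2 1.42.0, other normalizations and filters, a replicate block, each siRNA or knockdown alone, and each library left out.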

Additional observations from a re-analysis of the deposited data

Results flagged for a closer look

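In 20 groups of 4 knockdown libraries (10 genes in 2 knockdowns), Dixon's test compared the gap of the highest or lowest library with the range of its group. It marked 2 values beyond its 95% critical value, where chance marks about 1 group in 20. *TET2* was at 56.8 CPM in *SMARCA4* siRNA B replicate 1, below the other 3 libraries, with a gap of 0.885 of the range. *TRIM28* was at 598.7 CPM in *SMARCA1* siRNA A replicate 1, above the other 3, with a gap of 0.951 of the range.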

How the results depend on the processing

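With 2 controls and 2 libraries per siRNA, the number of members called moved with single libraries. In a fit with a library left out, its group is 1 library that is assumed to vary like the others. Leaving out each library in turn gave 2 to 8 members called in *SMARCA4* knockdown (5 with all libraries) and 2 to 7 in *SMARCA1* knockdown (4 with all), with 2 in each without either control. Of the wider list, 22 to 48 genes were called in *SMARCA4* knockdown (36 with all) and 19 to 42 in *SMARCA1* knockdown (31 with all). Between the siRNAs of *SMARCA4* it gave 0 to 1 members, and between those of *SMARCA1* 0 to 4 (0 with all for both). A fit of *SMARCA4* and control libraries only called 8 members. The cause of these shifts was not tested.

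Of member fold changes under the alternatives, 474 kept their direction and side of the threshold, 26 passed it, 25 lost it and 15 changed sign, all of values not called with all libraries in *SMARCA1* knockdown. *DNMT1* became −0.0256 with upper quartile normalization, −0.00448 with siRNA C alone and −0.0426 to 0.0968 with a library left out. *UHRF1* became −0.0295 with upper quartile normalization, −0.00164 with a filter of 1 CPM in 2 libraries, −0.126 with siRNA C alone and −0.0701 to 0.122 with a library left out. *TRIM28* became 0.0514 with siRNA A alone and −0.107 to 0.0763 with a library left out, and *TET2* −0.804 to 0.0114.

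Deviations of same-numbered replicates from their group means correlated between −0.103 and 0.362, above 0.1 only among both *SMARCA4* siRNAs and *SMARCA1* siRNA A, so the numbers were not taken as pairs. With the replicate number as a block, 4 members were called in *SMARCA4* knockdown, 4 in *SMARCA1* knockdown and 6 between the knockdowns. The block ended the call of *SETDB1* in *SMARCA4* knockdown (adjusted p = 0.057) and brought *TET3* between the knockdowns past the threshold (0.040). The scaling alternatives moved the median of all genes by less than 0.1 on the log2 scale.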
